A study of Sus scrofa with 22 samples.

Results

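The genes described here encode the factors that start and extend protein chains on the cytosolic ribosome. They are all genes whose single annotated symbol begins with EIF1 to EIF6, EEF1 or EEF2, and each was represented by its probe set with the highest mean signal over all samples. The rule found 42 genes, with 64 probe sets, among the 6765 genes named on a porcine Affymetrix expression array. The prefix also takes in regulators of the factors: an eIF2 kinase (EIF2AK2), an eIF4E-binding protein (EIF4EBP2) and a methyltransferase of eEF1A (EEF1AKMT1). EEF2, EEF2K, EEF1A2, EIF4EBP1, EIF5 and the kinases EIF2AK1, EIF2AK3 and EIF2AK4 had no probe set carrying their symbol alone and were not analysed here.

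The arrays came from 22 pigs, offspring of German Landrace gilts fed a diet with adequate protein during pregnancy, so every group shares the diet and no other diet was compared. There were 6 fetuses at 94 days post conception (94 dpc), 6 piglets at 1 day post natal (1 dpn), 6 at 28 dpn and 4 pigs at 188 dpn. The design text gives 3 gilts for each stage, so some animals of a stage share a dam. No label says which dam an animal had, and the p-values treat animals as independent. The sample labels name liver and the series title names muscle. The 8 measured skeletal muscle markers were all above background at every stage, with summed signals from 211345 to 284947 at 94 dpc and from 467311 to 567579 at 188 dpn. The 10 liver markers summed to 7891 to 53065 at 94 dpc and to 1789 to 6186 at 188 dpn, with 1 of them below background at each stage (CYP2E1 at 94 dpc, APOB later). The label of liver is therefore not borne out by the markers.

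Initiation begins when eIF2 brings the initiator tRNA to the small ribosomal subunit and eIF4F, made of the cap-binding protein eIF4E, the scaffold eIF4G and the RNA helicase eIF4A, recruits the messenger RNA. The subunit then scans to a start codon with eIF1 and eIF1A, eIF3 holds the complex together, eIF5B joins the large subunit, and eEF1A delivers each further aminoacyl-tRNA during elongation. In skeletal muscle this machinery is a main point of control of growth, through insulin, amino acids and mTOR complex 1 acting on eIF4E availability, and through phosphorylation of eIF2 under stress.

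Signals are the deposited linear intensities. Differences are on the log2(signal + 16) scale, later stage minus earlier stage, with standard errors (SE) from limma. A change was called at a Benjamini-Hochberg adjusted p under 0.05 over the 23999 probe sets tested, and a fold is taken on the same scale, which understates changes of dim genes. Background was set at a signal of 69.7, the 95th percentile of 23 control probe sets with absent targets, and no member had an overall mean below it. In bulk tissue, fewer cells of a type and less RNA per cell cannot be told apart.

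A limit of the 1 dpn group touches many of the changes below. The array carries control probe sets at the 3' end, the middle and the 5' end of the EF1A transcript. The 3'/5' ratio was 6.84 to 9.85 on 4 of the 6 arrays at 1 dpn (replicates 2 to 5), 1.11 and 1.27 on the other two, and 1.05 to 1.87 on the 16 arrays of the other stages. On those 4 arrays the actin control ratio was 25.9 to 32.6, against 4.96 and 10.3 on the other two. The GAPDH ratio was 1.49 to 2.02 against 1.06 and 1.12, and it was 1.19 to 1.71 on the 16 arrays of the other stages. By this GAPDH pair the uneven arrays therefore overlapped the other stages. A second pair of GAPDH controls gave 2.45 to 3.15 on the 4 uneven arrays and 1.59 and 1.64 on the other two. Its highest ratio at the other stages was 1.98, so by that pair the uneven arrays lay apart. At 1 dpn, 16 of the 42 members had both even arrays above all 4 uneven ones and 7 had both below. The same count was not made over all probe sets, so it does not show whether the members differ from other genes in this. Changes into and out of 1 dpn are therefore also given with only the 2 even arrays of that stage, a setting chosen after the data were seen. The spiked bioB control, which is added in a fixed amount, read 661 to 966 at 94 dpc and 946 to 2297 at 1 dpn, and the part of either difference in the results was not tested.

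Most translation factor genes differed among the stages. An F test over the 4 stages called 30 of 42 members (71.4%), against 51.4% of all probe sets. From 94 dpc to 188 dpn, 10 members rose and 8 fell, against 13.6% of all probe sets called higher and 22.5% called lower. Their median difference was 0.30, against -0.07 over all probe sets. EIF4G3 rose most over this span and EIF4E2 fell most.

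From 94 dpc to 1 dpn, 8 members rose and 7 fell (10.9% and 21.7% of all probe sets), with a median difference of 0.02 against -0.08 over all. From 1 dpn to 28 dpn, 8 rose and 5 fell (13.9% and 8.39%), with a median of 0.13 against 0.10. From 28 dpn to 188 dpn, 2 rose and 5 fell (3.65% and 8.2%), with a median of 0.07 against -0.12. In all, 27 members were called in at least 1 of these 4 comparisons and 15 in none of them. Those called in none included EIF4E, EIF2S1 and EIF2A. The share of all probe sets called in at least 1 of these comparisons was not counted. The counts of 27 and 15 therefore do not show whether members differ from other genes. The comparisons share stages, so their counts are not independent of each other.

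The split of calls depended on how arrays were scaled. When arrays were centred on their medians, the median difference over all probe sets moved to 0.18, -0.09, 0.08 and 0.20 in the 4 comparisons in the order 94 dpc to 1 dpn, 1 to 28 dpn, 28 to 188 dpn and 94 dpc to 188 dpn. The members then split into 14 higher and 5 lower, 4 and 9, 6 and 1, and 21 and 5. With quantile normalization they split into 7 and 11, 6 and 4, 2 and 5, and 12 and 12. The shares of all probe sets called under these scalings were not counted, so the splits do not show whether members differ from other genes. The median difference of the members over the span from 94 dpc to 188 dpn also moved. It was 0.57 against 0.20 over all probe sets with median centring, and 0.12 against 0.06 with quantile normalization. From 94 dpc to 1 dpn it was 0.28 against 0.18 with median centring, and -0.19 against 0.05 with quantile normalization.

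**Figure D1:**
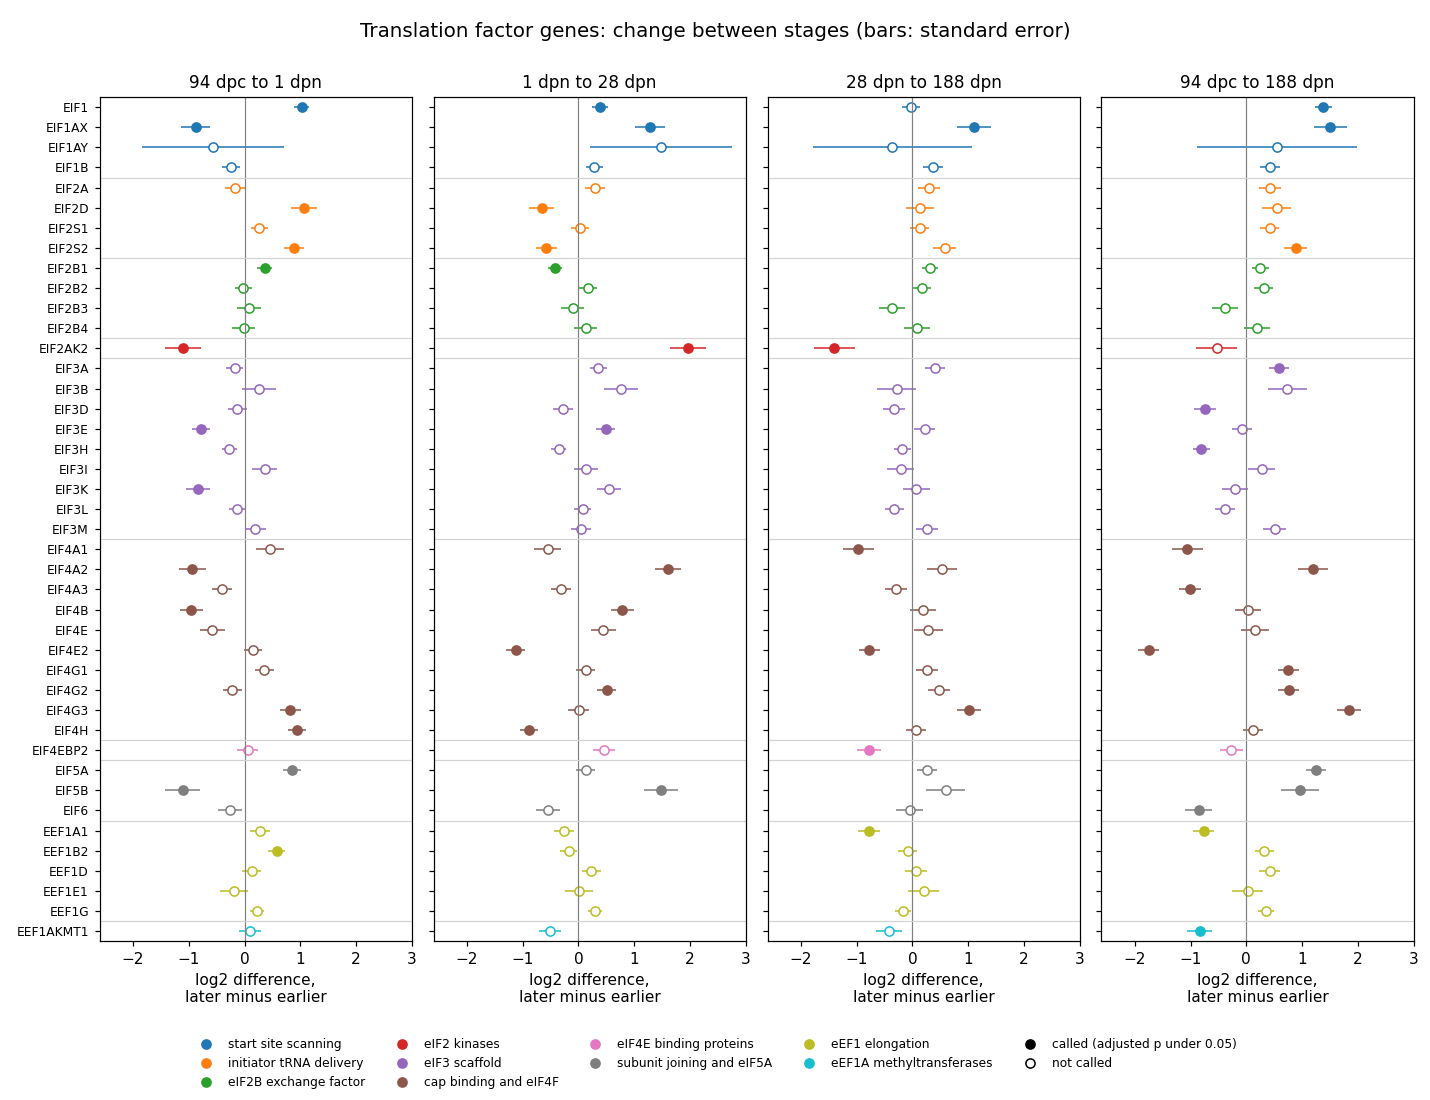
Each point is the log2 difference of 1 of 42 translation factor genes between 2 stages, later minus earlier, with its standard error as a bar; rows are grouped by role, and filled points passed an adjusted p under 0.05. Over the span from 94 dpc to 188 dpn the eIF4F genes lie on both sides of 0, from -1.75 (EIF4E2) to 1.84 (EIF4G3).

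Among the genes of start site scanning, EIF1 and EIF1AX ended well above their fetal level. EIF1, which keeps the scanning subunit open and guards the choice of start codon, had signals from 19830 to 26947 (median 24176) at 94 dpc. It ranged from 36948 to 56784 (median 49715) at 1 dpn and from 53488 to 66795 (median 64701) at 28 dpn. At 188 dpn the 4 pigs gave 57050, 59729, 62833 and 67463. Every postnatal animal lay above every fetus. The rise was 1.02 (SE 0.14, adjusted p = 7.6e-06) from 94 dpc to 1 dpn and 1.38 (SE 0.16, 2.61-fold, adjusted p = 3e-07) over the whole span. Quantile normalization gave smaller values, 0.52 and 0.80, both still called. The step from 1 dpn to 28 dpn, 0.39 (adjusted p = 0.049), kept its call only without 1 dpn replicate 3, 1 dpn replicate 4 or 28 dpn replicate 3, and lost it when any 1 of the other 19 animals was left out. It also lost it with both other scalings, while the even arrays gave 0.65 (adjusted p = 0.015). A second, dimmer probe set of EIF1 was called for this step with all arrays (0.65, adjusted p = 0.0018). That probe set gave 1.27 from 94 dpc to 1 dpn and 1.96 over the whole span, both called.

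EIF1AX encodes eIF1A, the partner of eIF1 in scanning. Its signal was 693 to 1403 (median 1026) at 94 dpc, 323 to 749 (median 594) at 1 dpn and 947 to 1879 (median 1315) at 28 dpn, and 1472, 3375, 3423 and 4031 at 188 dpn. All piglets of 1 dpn lay below all of 28 dpn, and 3 of the 4 oldest pigs lay above all others. The gene fell by 0.88 (SE 0.27, adjusted p = 0.014) into 1 dpn, then rose by 1.28 (SE 0.27, adjusted p = 0.0013) and by 1.11 (SE 0.30, adjusted p = 0.017). The net rise over the span was 1.51 (SE 0.30, 2.85-fold, adjusted p = 0.00033), and a second probe set of the gene gave 1.43. With the even 1 dpn arrays the first step was -0.60 (adjusted p = 0.26) and the second 1.00 (adjusted p = 0.066). The first step also lost its call with both other scalings. The call from 28 dpn to 188 dpn was lost without 188 dpn replicate 1, 2 or 3, with adjusted p up to 0.076.

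EIF1B, a close paralog of EIF1, was not called in any of the 4 comparisons (0.42 over the span, adjusted p = 0.071), although its 188 dpn signals, 5521 to 6166, lay above all 6 fetuses, 3932 to 4814. EIF1AY, the counterpart of EIF1AX placed on the Y chromosome by RefSeq, divided the animals within each stage. At 94 dpc its signal was 5.09 to 798 (median 356), with 3 of 6 animals below background. At 188 dpn it was 5.44, 40.0, 960 and 1714. It was below background in 4 of 6 animals at 1 dpn and 2 of 6 at 28 dpn, and the F test did not call it (adjusted p = 0.74). The labels used here give no sex.

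Among the genes that deliver the initiator tRNA, EIF2S2 and EIF2D rose from 94 dpc to 1 dpn and fell to 28 dpn. EIF2S2, the beta subunit of eIF2, read 2194 to 3067 (median 2451) at 94 dpc, 3309 to 6764 (median 4539) at 1 dpn and 2323 to 3747 (median 3082) at 28 dpn. The 188 dpn values were 3634, 4384, 4887 and 6173. Both the newborn and the oldest animals lay above all fetuses. The rise into 1 dpn was 0.88 (SE 0.18, adjusted p = 0.00074), the fall to 28 dpn was -0.58 (SE 0.18, adjusted p = 0.027) and the net rise to 188 dpn was 0.89 (SE 0.21, 1.85-fold, adjusted p = 0.0015). The fall was lost without 1 dpn replicate 5, 1 dpn replicate 6 or 28 dpn replicate 4, with the even arrays (-0.60, adjusted p = 0.14) and with quantile normalization (-0.48).

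EIF2D, which can place the initiator tRNA without eIF2 and also helps to recycle ribosomes, read 192 to 358 (median 305) at 94 dpc, 393 to 922 (median 633) at 1 dpn, 235 to 566 (median 394) at 28 dpn and 311, 379, 448 and 613 at 188 dpn. The newborn and fetal ranges did not overlap. It rose by 1.07 (SE 0.23, 2.10-fold, adjusted p = 0.001) into 1 dpn, and by 1.47 with the even arrays. It then fell by 0.66 (SE 0.23, adjusted p = 0.043), a call lost when any 1 of 10 animals was left out: 94 dpc replicates 2, 5 and 6, 1 dpn replicates 1, 2 and 6, and 28 dpn replicates 1 to 4. The even arrays gave -1.06 for that fall (adjusted p = 0.020).

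EIF2S1, the alpha subunit of eIF2 and the site of its regulatory phosphorylation, was not called in any comparison. Its signal was 1681 to 1989 (median 1903) at 94 dpc, 1758 to 3475 (median 2030) at 1 dpn, 2104 to 2391 (median 2278) at 28 dpn and 2430, 2473, 2480 and 2574 at 188 dpn. The fetal and oldest ranges did not overlap, with a difference of 0.42 (SE 0.17, adjusted p = 0.061). EIF2A, an alternative initiator tRNA carrier, differed by 0.43 over the span (adjusted p = 0.10). A second, dimmer probe set of EIF2A was called higher over the span (0.72, adjusted p = 0.023) and from 94 dpc to 1 dpn (0.94, adjusted p = 0.0019).

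The exchange factor eIF2B recharges eIF2 with GTP, and 4 of its 5 subunit genes were measured. EIF2B1 was the member of this group that was called. It read 968 to 1117 (median 1080) at 94 dpc, 1277 to 1645 (median 1333) at 1 dpn and 849 to 1149 (median 1035) at 28 dpn, and 1117, 1143, 1390 and 1451 at 188 dpn. The newborns lay above all fetuses and all piglets of 28 dpn. The rise was 0.36 (SE 0.13, adjusted p = 0.041) and the fall -0.42 (SE 0.13, adjusted p = 0.023). Both lost their call with the even arrays (0.29 and -0.36). The rise lost its call without 1 dpn replicate 3, 1 dpn replicate 4 or any 1 of the 6 fetuses, and the fall without 1 dpn replicate 3, 28 dpn replicate 1 or 28 dpn replicate 4. A second, dimmer probe set of EIF2B1 went the other way from 1 dpn to 28 dpn, by 1.49 (adjusted p = 0.0099). EIF2B2, EIF2B3 and EIF2B4 had differences between -0.39 and 0.31 in all 4 comparisons, and the F test called none of these genes. With the even arrays, EIF2B4 was 0.67 higher at 1 dpn than at 94 dpc (adjusted p = 0.017), and EIF2B3 differed by 0.51 (adjusted p = 0.14) into 1 dpn and -0.53 (adjusted p = 0.15) out of it.

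EIF2AK2 encodes PKR, an interferon-inducible kinase that phosphorylates eIF2 when it binds double-stranded RNA. Its signal was low: 81.3 to 195 (median 97.7) at 94 dpc, 2.14 to 97.2 (median 52.8) at 1 dpn, and 164 to 388 (median 197) at 28 dpn. The 188 dpn values were 48.1, 70.0, 74.8 and 94.5. All 6 piglets of 28 dpn lay above every animal of 1 dpn and of 188 dpn, and 5 of the 6 newborns lay below background. The mean signal went from 114 to 50.4, 221 and 71.9 over the 4 stages. The differences were -1.10 (SE 0.32, adjusted p = 0.011), 1.97 (SE 0.32, adjusted p = 0.00013) and -1.40 (SE 0.36, adjusted p = 0.013), the last a 2.64-fold fall. No fold is given for the first and second because the newborn mean lay below background. All 3 steps were called under both other scalings, and the even arrays gave -2.04 and 2.90 for the first and second. Summed signals of the 7 measured macrophage markers were 1576 to 3697 at 1 dpn, 2827 to 11124 at 28 dpn and 1533 to 5788 at 188 dpn, and their part in this pattern was not tested.

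**Figure D2:**
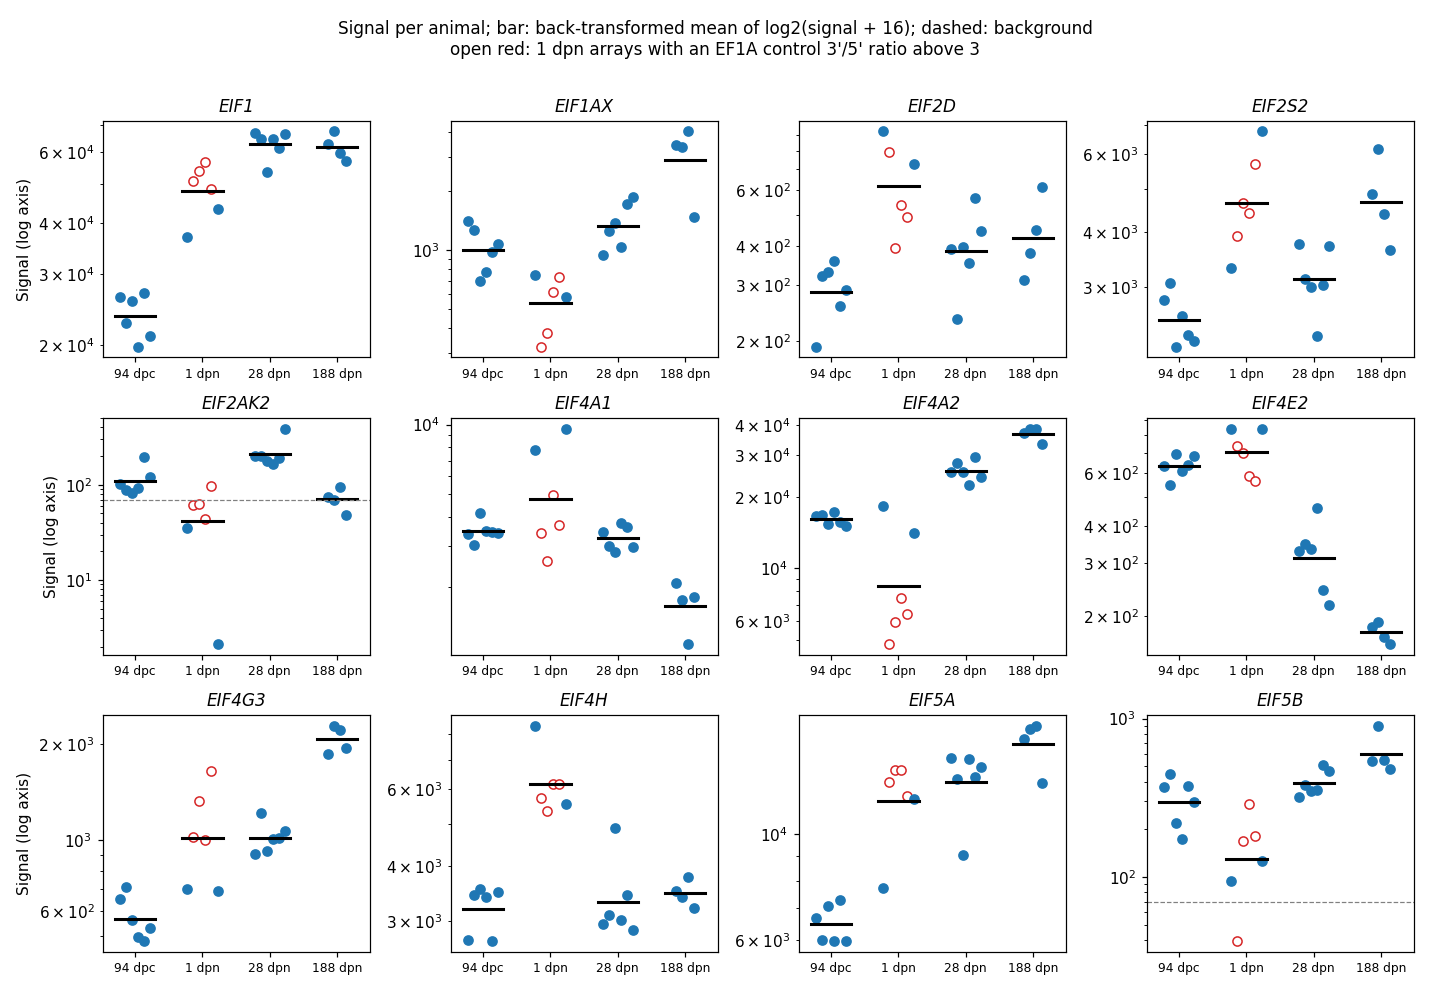
Each point is the signal of 1 animal on a log axis for 12 translation factor genes at 4 stages; bars are back-transformed means, dashed lines the background of 69.7, and open red points the 4 arrays of 1 dpn with an EF1A control 3'/5' ratio above 3. EIF1, EIF4G3 and EIF5A lie higher at 188 dpn than in every fetus, EIF4A1 and EIF4E2 lie lower, and the open points of EIF4A2 (4815 to 7494) lie apart from the other 2 newborns.

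The subunits of eIF3 did not move together. Over the span EIF3A rose while EIF3D and EIF3H fell, and the other 6 measured subunits were not called by the probe sets used. Over all probe sets 13.6% were called higher and 22.5% lower. For EIF3M the probe set used gave 0.51 (adjusted p = 0.054), while a second, dimmer one was called lower (-0.74, adjusted p = 0.016). EIF3A, the largest scaffold subunit, read 2157 to 2624 (median 2435) at 94 dpc and 3338, 3634, 3695 and 3791 at 188 dpn, a rise of 0.59 (SE 0.17, 1.50-fold, adjusted p = 0.010). EIF3H, which is not part of the conserved core, read 13599 to 16734 (median 15320) in the fetuses and 7429, 7579, 9602 and 10127 in the oldest pigs. These ranges did not overlap either, and the difference was -0.81 (SE 0.15, 1.75-fold lower, adjusted p = 0.00015).

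EIF3D, a subunit with cap-binding activity of its own, read 2539 to 3358 (median 2992) at 94 dpc and 1549, 1642, 1806 and 2001 at 188 dpn, again without overlap. It differed by -0.74 (SE 0.19, adjusted p = 0.0045), which median centring reduced to -0.47 (adjusted p = 0.094). A second, dimmer probe set of EIF3D gave -0.30 (adjusted p = 0.63).

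EIF3E and EIF3K fell from 94 dpc to 1 dpn. EIF3E went from 7848 to 10497 (median 9287) down to 4036 to 6697 (median 5590), without overlap, a difference of -0.78 (SE 0.16, adjusted p = 0.00079) that the even arrays kept at -0.89. It rose again by 0.49 to 28 dpn (adjusted p = 0.037), a call lost with median centring, with the even arrays and without 1 dpn replicate 2 or 6 or 28 dpn replicate 3, 5 or 6.

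EIF3K read 16453 to 23510 (median 19941) in the fetuses and 6769 to 22345 (median 9880) in the newborns. The 4 newborns with uneven arrays had 6769 to 10152 and the other two 15297 and 22345, so 1 newborn, with an even array, lay inside the fetal range. The fall of -0.83 (SE 0.21, adjusted p = 0.0043) became -0.10 (adjusted p = 0.76) with the even arrays, and -0.57 (adjusted p = 0.063) with median centring. EIF3B, a core scaffold subunit, also read higher on both even arrays than on the 4 uneven ones, but for it the even arrays added a call. Its difference of 0.26 from 94 dpc to 1 dpn (adjusted p = 0.57) was 1.50 (adjusted p = 0.00014) with the even arrays, whose 2 animals had 1947 and 1987 against 469 to 666 in the other 4 newborns and 531 to 840 in the fetuses.

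The eIF4F genes, the largest of the role groups, held both extremes of the span. Of 10 measured cap-binding and eIF4F genes, 4 were called higher at 188 dpn than at 94 dpc and 3 lower (13.6% and 22.5% of all probe sets). The 2 helicase paralogs EIF4A1 and EIF4A2, which encode near-identical proteins, went in opposite directions. EIF4A1 read 3033 to 4179 (median 3433) at 94 dpc, 2585 to 9603 (median 4331) at 1 dpn and 2831 to 3782 (median 3218) at 28 dpn, then 1135, 1758, 1813 and 2071 at 188 dpn. All 4 oldest pigs lay below every other animal. The fall was -0.97 (SE 0.28, adjusted p = 0.025) from 28 dpn and -1.06 (SE 0.28, 2.09-fold lower, adjusted p = 0.0042) from 94 dpc. The fall from 28 dpn lost its call without 28 dpn replicate 4, 188 dpn replicate 2 or 188 dpn replicate 3, and with median centring (-0.76, adjusted p = 0.10). With the even arrays EIF4A1 was also 1.31 higher at 1 dpn than at 94 dpc (adjusted p = 0.00023), a difference of 0.46 (adjusted p = 0.17) with all arrays.

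EIF4A2 read 15119 to 17270 (median 16083) at 94 dpc, 4815 to 18275 (median 6954) at 1 dpn, 22386 to 29354 (median 25364) at 28 dpn and 33428, 37169, 38499 and 38672 at 188 dpn. Apart from the newborns, whose range spanned that of the fetuses, the stages did not overlap and each later one was higher. The gene rose by 1.20 (SE 0.27, 2.29-fold, adjusted p = 0.0011) over the span and by 1.61 (SE 0.24, adjusted p = 4.8e-05) from 1 dpn to 28 dpn, which the even arrays reduced to 0.68 (adjusted p = 0.0083). The step from 28 dpn to 188 dpn, 0.52, was not called (adjusted p = 0.23). The fall into 1 dpn, -0.94 (SE 0.24, adjusted p = 0.0042), was -0.01 (adjusted p = 0.98) with the even arrays, in which EIF4A2 read 14041 and 18275. EIF4A3, the helicase of the exon junction complex rather than of eIF4F, fell over the span by 1.01 (SE 0.20, adjusted p = 0.00031), from 3541 to 4456 (median 3992) to 1841, 1931, 1934 and 2124.

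All 3 measured eIF4G scaffold genes rose over the span. EIF4G3, which encodes the scaffold eIF4GII, read 482 to 713 (median 545) at 94 dpc, 690 to 1648 (median 1012) at 1 dpn, 903 to 1212 (median 1012) at 28 dpn and 1870, 1945, 2217 and 2283 at 188 dpn. The oldest pigs lay above every other animal and the 28 dpn piglets above every fetus. The rise was 1.84 (SE 0.21, 3.58-fold, adjusted p = 3.8e-07) over the span, 1.02 (SE 0.21, adjusted p = 0.0029) of it from 28 dpn. The first step, 0.82 (SE 0.19, adjusted p = 0.0017), was 0.29 (adjusted p = 0.29) with the even arrays.

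EIF4G1, the main scaffold that bridges eIF4E, eIF4A and eIF3, read 1508 to 2101 (median 1688) at 94 dpc, 1697 to 3782 (median 2083) at 1 dpn, 2179 to 2691 (median 2403) at 28 dpn and 2802, 2885, 2935 and 2967 at 188 dpn. The 28 dpn and 188 dpn ranges each lay above the one before them apart from the wide newborn range. Its rise over the span was 0.75 (SE 0.19, 1.68-fold, adjusted p = 0.0032). EIF4G2, an eIF4G homologue that does not bind eIF4E, read 11864 to 13510 (median 12183), 8297 to 15661 (median 9220), 12621 to 18523 (median 14838), and 19024, 20297, 21690 and 23548. The oldest pigs lay above every other animal, and the rise over the span was 0.76 (SE 0.19, 1.70-fold, adjusted p = 0.0029). Quantile normalization gave 0.21 (adjusted p = 0.46), and the scale of this gene's rise depends on that choice. Its step from 1 dpn to 28 dpn, 0.51 (SE 0.17, adjusted p = 0.035), lost its call with both other scalings, with the even arrays (0.38) and when any 1 of 8 animals was left out: 1 dpn replicates 2, 3, 4 and 6, and 28 dpn replicates 1, 4, 5 and 6.

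The cap-binding protein gene EIF4E was not called in any comparison. It read 197 to 313 (median 216) at 94 dpc, 85.8 to 239 (median 160) at 1 dpn, 155 to 286 (median 201) at 28 dpn and 202, 203, 306 and 330 at 188 dpn. The ranges of all stages overlapped, and the difference over the span was 0.15 (SE 0.25, adjusted p = 0.69). Its homologue EIF4E2, which binds the cap without joining eIF4G and is linked to repression of translation, fell most of all members over the span.

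EIF4E2 read 546 to 696 (median 634) at 94 dpc and 564 to 843 (median 719) at 1 dpn, then 217 to 458 (median 332) at 28 dpn and 162, 170, 184 and 191 at 188 dpn. The fetal and newborn ranges overlapped, and each later stage lay wholly below those before it. The falls were -1.13 (SE 0.17, adjusted p = 4.2e-05) from 1 dpn to 28 dpn, -0.77 (SE 0.19, adjusted p = 0.0081) from 28 dpn to 188 dpn and -1.75 (SE 0.19, 3.37-fold lower, adjusted p = 1.3e-07) over the span. The middle one lost its call with median centring (-0.57, adjusted p = 0.064). The 2 other, dimmer probe sets of EIF4E2 gave 0.17 and -0.55 over the span, neither called, so the fall rests on 1 of 3 probe sets.

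EIF4B and EIF4H both stimulate the helicase and took opposite courses at 1 dpn. EIF4H read 2695 to 3540 (median 3410) at 94 dpc, 5357 to 8367 (median 5939) at 1 dpn, 2851 to 4897 (median 3056) at 28 dpn and 3199, 3406, 3511 and 3783 at 188 dpn. Every newborn lay above every animal of the other stages. It rose by 0.94 (SE 0.16, 1.92-fold, adjusted p = 8.1e-05) and fell by 0.89 (SE 0.16, adjusted p = 0.00029), and the even arrays gave 1.09 and -1.04, both called. A second, dimmer probe set differed by -0.90 (adjusted p = 0.12) from 94 dpc to 1 dpn. Over the span that second set was called lower (-1.99, adjusted p = 0.0023), while the one used gave 0.12 (adjusted p = 0.65), so the probe sets disagree.

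EIF4B read 4307 to 5816 (median 5413), 1850 to 5353 (median 2441), 3750 to 6215 (median 4471), and 4654, 5128, 5418 and 6600 at the 4 stages. Newborns were low, with 1 animal inside the fetal range. Its fall of -0.95 (SE 0.21, adjusted p = 0.0011) and rise of 0.78 (SE 0.21, adjusted p = 0.0086) were -0.34 (adjusted p = 0.31) and 0.17 (adjusted p = 0.67) with the even arrays. Median centring also ended the call of the rise (0.59, adjusted p = 0.056). A second probe set of EIF4B gave -0.41 and 0.61, neither called.

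EIF4EBP2, which holds eIF4E away from eIF4G until mTOR complex 1 phosphorylates it, fell from 28 dpn to 188 dpn by 1 of its 5 probe sets. This brightest one read 3948 to 5613 (median 4725) at 94 dpc, 2958 to 7004 (median 5590) at 1 dpn, 6074 to 7438 (median 6444) at 28 dpn and 3487, 3886, 4007 and 4108 at 188 dpn. The 28 dpn piglets lay above all fetuses and all of the oldest pigs. The fall to 188 dpn was -0.78 (SE 0.21, 1.71-fold lower, adjusted p = 0.019), lost without 188 dpn replicate 2 (adjusted p = 0.064) and with median centring (-0.57, adjusted p = 0.071). The rise into 28 dpn was 0.46 (adjusted p = 0.091) with all arrays and 1.10 (adjusted p = 0.00032) with the even ones. The 4 dimmer probe sets gave -0.28, -0.02, -0.15 and -0.26 for the fall, none called. From 1 dpn to 28 dpn 1 of them rose (0.69, adjusted p = 0.00068) and another fell (-0.84, adjusted p = 0.0026), so the probe sets disagree on that step.

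Of the genes for subunit joining and eIF5A, EIF5A and EIF5B ended higher and EIF6 lower. EIF5A, which carries the modified lysine hypusine and helps ribosomes through stalling stretches, read 5981 to 7277 (median 6353) at 94 dpc, 7730 to 13644 (median 12467) at 1 dpn, 9034 to 14458 (median 13522) at 28 dpn and 12786, 15847, 16643 and 16870 at 188 dpn. Every postnatal animal lay above every fetus. The rise was 0.86 (SE 0.16, adjusted p = 0.0003) into 1 dpn and 1.25 (SE 0.18, 2.38-fold, adjusted p = 9.1e-06) over the span. The even arrays gave 0.56 for the first (adjusted p = 0.063). A second probe set also rose over the span (1.39, adjusted p = 0.011) but fell into 1 dpn (-1.12, adjusted p = 0.024), so the probe sets disagree on the newborns.

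EIF5B, the GTPase that joins the large subunit, read 174 to 447 (median 334) at 94 dpc, 39.5 to 287 (median 147) at 1 dpn, 320 to 513 (median 367) at 28 dpn and 484, 541, 547 and 899 at 188 dpn. All newborns lay below all animals of 28 dpn and 188 dpn. The fall into 1 dpn was -1.11 (SE 0.31, adjusted p = 0.0075), the rise to 28 dpn 1.48 (SE 0.31, 2.79-fold, adjusted p = 0.0013) and the rise over the span 0.96 (SE 0.34, adjusted p = 0.032). With the even arrays these were -1.34, 1.71 and 0.96, all called. Quantile normalization ended the call of the fall (-0.78, adjusted p = 0.056). The call over the span was lost without 94 dpc replicate 3 or 4 or 188 dpn replicate 2 or 3, with adjusted p up to 0.12. The 2 other, dimmer probe sets of EIF5B did not show the low newborn signal: they gave 0.23 and 0.31 into 1 dpn and 0.10 and 0.42 out of it, none called. Over the span they gave 0.97 (adjusted p = 0.0040) and 0.86 (adjusted p = 0.12), so the newborn dip rests on 1 of 3 probe sets.

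EIF6, which keeps the large subunit from joining too early and is needed to make it, read 1700 to 2813 (median 2285) at 94 dpc, 1210 to 3573 (median 1599) at 1 dpn, 1078 to 1371 (median 1297) at 28 dpn and 1118, 1176, 1181 and 1359 at 188 dpn. The last 2 stages lay below all fetuses. The difference over the span was -0.86 (SE 0.24, 1.81-fold lower, adjusted p = 0.0072), and -0.59 (adjusted p = 0.080) with median centring.

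Of the 5 measured eEF1 genes, 1 was called in each of 3 comparisons. EEF1B2, an exchange factor subunit that recharges eEF1A, read 30349 to 38220 (median 35303) at 94 dpc and 34209 to 64176 (median 58096) at 1 dpn. The lowest newborn lay inside the fetal range. The rise of 0.58 (SE 0.15, adjusted p = 0.0056) was 0.13 (adjusted p = 0.61) with the even arrays and 0.08 (adjusted p = 0.66) with quantile normalization. EEF1D and EEF1G, other subunits of the exchange complex, differed over the span by 0.42 (adjusted p = 0.097) and 0.35 (adjusted p = 0.058). EEF1E1, a small protein of the multi-synthetase complex, differed by 0.03 (adjusted p = 0.96). With the even arrays EEF1E1 differed by 0.74 (adjusted p = 0.018) into 1 dpn and by -0.91 (adjusted p = 0.0076) from 1 dpn to 28 dpn.

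EEF1A1, which delivers aminoacyl-tRNA to the ribosome, was measured by several probe sets. The brightest one outside the array's controls read 1084 to 1551 (median 1351) at 94 dpc, 1417 to 1963 (median 1576) at 1 dpn, 869 to 1737 (median 1443) at 28 dpn and 695, 738, 823 and 890 at 188 dpn. The oldest pigs lay below all fetuses and newborns. The fall was -0.78 (SE 0.19, adjusted p = 0.0099) from 28 dpn and -0.77 (SE 0.19, 1.70-fold lower, adjusted p = 0.0032) from 94 dpc. Median centring gave -0.58 (adjusted p = 0.059) and -0.50 (adjusted p = 0.051). The EF1A control probe sets are annotated as the same gene, and the one in the middle of the transcript read 40411 to 48763 at 94 dpc and 30052 to 50325 at 188 dpn. Put into the fit in an alternative added after the data were seen, it gave -0.58 (adjusted p = 0.062) from 28 dpn and -0.29 (adjusted p = 0.28) from 94 dpc. The 3' control, the brightest measurement of the gene, gave -0.37 (adjusted p = 0.17) and 0.02 (adjusted p = 0.94). The fall of EEF1A1 was therefore not called with either of these controls. Dimmer probe sets of the gene outside the controls were called lower over the span. One gave -0.87 (adjusted p = 0.0099), and -0.98 (adjusted p = 0.015) from 28 dpn. Another gave -1.67 (adjusted p = 0.00035), but -0.07 (adjusted p = 0.93) from 28 dpn. The measurements of EEF1A1 thus disagree on the fall. EEF1A2, which skeletal muscle expresses after birth, was not analysed here. EEF1AKMT1, a lysine methyltransferase of eEF1A, fell over the span by 0.84 (SE 0.23, 1.78-fold, adjusted p = 0.0054), from 4772 to 7537 (median 5165) to 2555, 2862, 3131 and 3838.

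**Figure D3:**
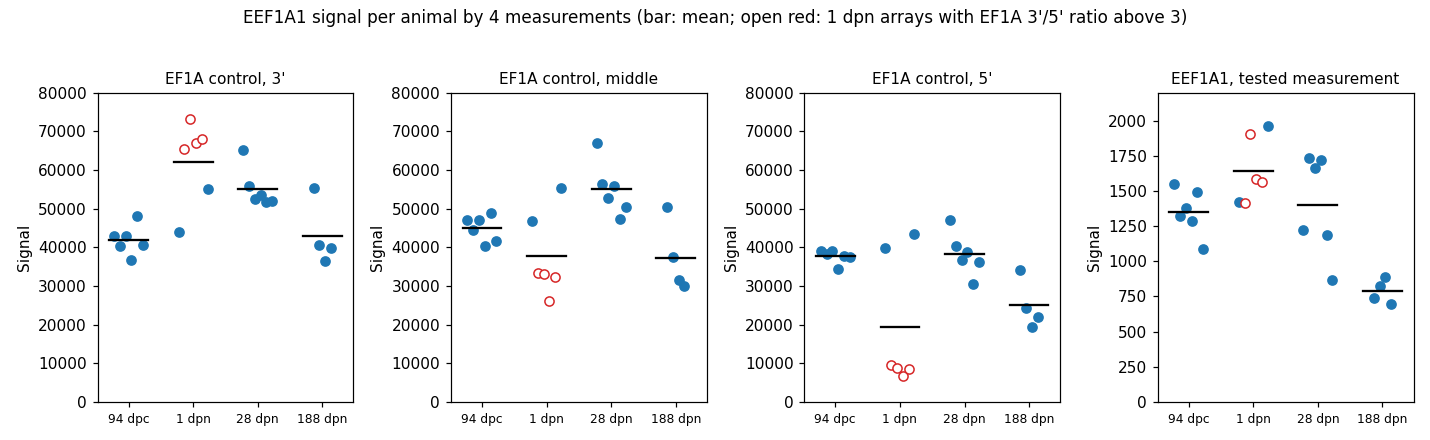
Each point is the signal of 1 animal on a linear axis for the 3 EF1A control probe sets and the tested EEF1A1 probe set at 4 stages; bars are means, and open red points the 4 arrays of 1 dpn with a 3'/5' ratio above 3. On those arrays the 5' control read 6794 to 9561 against 39692 and 43353 on the other 2, while the 3' control read 65427 to 73130 against 43874 and 55152.

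The newborn stage stood apart for 10 members. EIF1AX, EIF2AK2, EIF3E, EIF4A2, EIF4B and EIF5B were called lower at 1 dpn than at both neighbouring stages, 6 of 42 against 7.11% of all probe sets. EIF2B1, EIF2D, EIF2S2 and EIF4H were called higher than at both, 4 of 42 against 3.61%. With the even arrays, EIF2AK2 and EIF5B kept the first pattern and EIF2D and EIF4H the second. In that fit EIF4EBP2 also met the first pattern, and EEF1E1 and EIF4A1 the second. Of the 15 member calls from 94 dpc to 1 dpn, 7 were shared with the even-array fit, 8 were lost and 9 were gained. Of the 13 from 1 dpn to 28 dpn, 7 were shared, 6 lost and 6 gained. The 2 arrays on which the second fit rests limit its precision.

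**Figure D4:**
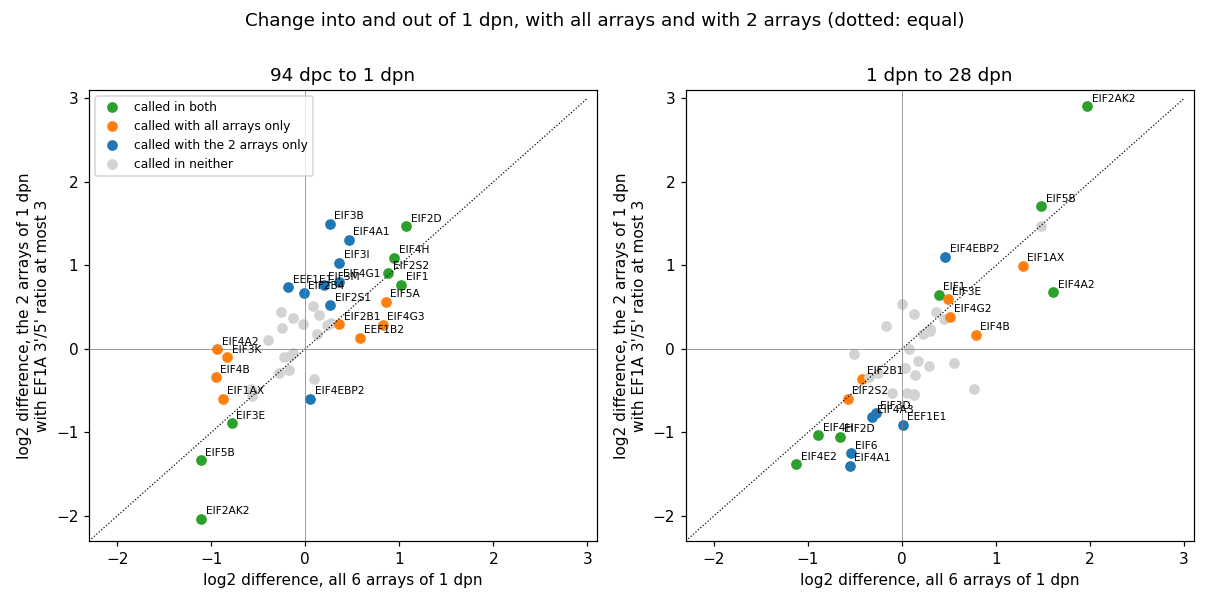
Each point is a translation factor gene, with its log2 difference using all 6 arrays of 1 dpn on the x axis and using the 2 arrays with an EF1A 3'/5' ratio of at most 3 on the y axis, for the step into 1 dpn (left) and out of it (right). EIF2D, EIF4H, EIF5B and EIF2AK2 were called in both, EIF4A2 moved from -0.94 to -0.01 into 1 dpn, and EIF3B moved from 0.26 to 1.50.

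Probe sets of one gene did not always give the same answer. For the 16 members with more than 1 probe set, the one used here gave 27 called changes. Another probe set of the gene was called in the same direction for 13 of them, in the opposite direction for 2 (EIF5A into 1 dpn and EIF2B1 from 1 dpn to 28 dpn), and was not called for 12. Probe sequences were not used here, so hybridisation of close paralogs to one probe set, such as EIF4A1 and EIF4A2 or EIF1 and EIF1B, was not tested.

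Among partners of these factors, the poly(A)-binding proteins, which bridge the tail of the message to eIF4G, went apart. PABPC1 fell over the span by 1.58 (adjusted p = 4.2e-07), from a mean signal of 13152 to 4463, and PABPC4 rose by 0.94 (adjusted p = 8.1e-05), from 5030 to 9678. PAIP1, which binds PABPC1, rose by 1.61 (adjusted p = 9.4e-05). Of the 7 measured genes in this list of poly(A) and other initiation partners, 3 rose and 1 fell over the span (13.6% and 22.5% of all probe sets).

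The integrated stress response runs from phosphorylated eIF2 to the transcription factor ATF4. Of its 11 measured genes 3 rose and 1 fell over the span. Over all probe sets 13.6% were called higher and 22.5% lower, which also holds beside the mTOR counts below. ATF4 rose by 3.44 (adjusted p = 6.1e-08), from a mean signal of 5760 at 94 dpc to 62705 at 188 dpn. CEBPB, another transcription factor of this list, rose by 3.08 (adjusted p = 1.7e-07), from 1395 to 11995. Of 12 measured genes of the mTOR complex 1 pathway, 2 rose and 2 fell, among them AKT1 (-1.04, adjusted p = 1.2e-05) and PDPK1 (-0.99, adjusted p = 0.00024), kinases upstream of it, and LAMTOR3 (0.96, adjusted p = 4.8e-05), part of its lysosomal anchor.

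Aminoacyl-tRNA synthetases charge the tRNAs that eEF1A carries. Of 17 measured genes of this list, 8 rose and 2 fell from 94 dpc to 1 dpn, and 2 rose and 8 fell from 1 dpn to 28 dpn. Over all probe sets, 10.9% were called higher and 21.7% lower in the first step, and 13.9% and 8.39% in the second. SARS, the seryl-tRNA synthetase, rose by 2.15 (adjusted p = 3.3e-06) into 1 dpn, and 2.10 with the even arrays. MARS, the methionyl-tRNA synthetase, fell by 1.31 (adjusted p = 0.00039) to 28 dpn, a call lost with the even arrays (-0.82, adjusted p = 0.097). The largest called change of the list in that step was a rise, of DARS, the aspartyl-tRNA synthetase. DARS rose by 2.43 (adjusted p = 1.7e-05), and by 1.30 (adjusted p = 0.014) with the even arrays.

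Of 6 measured mitochondrial translation factor genes, 5 rose and 1 fell from 94 dpc to 1 dpn (10.9% and 21.7% of all probe sets). From 1 dpn to 28 dpn, 1 rose and 4 fell (13.9% and 8.39%). TSFM, the exchange factor of the mitochondrial elongation factor TUFM, rose by 1.94 (adjusted p = 1.3e-08) and then fell by 1.16 (adjusted p = 1.4e-05). TUFM rose by 1.25 (adjusted p = 1.4e-06) into 1 dpn. The even arrays gave 1.67, -0.90 and 1.16 for these differences.

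Polyamines supply the side chain of hypusine on eIF5A. Of 8 measured genes of polyamine and hypusine synthesis, 1 rose and 4 fell over the span (13.6% and 22.5% of all probe sets). OAZ1, the antizyme that restrains ornithine decarboxylase, fell by 2.45 (adjusted p = 1.2e-07), from a mean signal of 34600 to 6471. ODC1, ornithine decarboxylase itself, fell by 1.07 (adjusted p = 0.018). DHPS, which starts hypusine formation, rose by 0.93 (adjusted p = 6.7e-05) from 94 dpc to 1 dpn. Of 3 measured genes for diphthamide, the modified residue of eEF2, 2 rose and 1 fell over the span. NEMF, the 1 measured gene of termination and recycling, rose by 0.92 (adjusted p = 0.0037).

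Markers of other cells and of dividing cells also differed among the stages. The 8 measured proliferation markers summed to 6664 to 8005 at 94 dpc, 1100 to 2326 at 1 dpn, 1694 to 3689 at 28 dpn and 1239 to 1876 at 188 dpn. The 9 endothelial markers summed to 15393 to 18292, 4998 to 6657, 8905 to 13238 and 3664 to 5392, and the 9 matrix markers to 51973 to 79600, 16933 to 28631, 17950 to 37478 and 12149 to 18816. Fetal sums of all 3 lists lay above those of every later animal. The 4 measured adipocyte markers were highest at 1 dpn, 9209 to 16223, against 3342 to 6412 at 94 dpc. The 4 erythroid markers summed to 1000 to 1700 at 94 dpc and 597 to 725 at 188 dpn, and the 2 pancreas markers reached 7672 in 1 newborn. The part of these cell types in the changes of the translation factor genes was not tested.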

How the data were processed

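Total RNA of 22 pigs was labelled from 0.5 µg and hybridised to an Affymetrix porcine array, per the labels' protocols. The deposited intensity values are linear and came from GCOS 1.1.1, per the submitters' processing notes. The mean of each array after trimming 2% at each end was 500.1 to 500.2, so the authors' values were already scaled, and no genome build is given in the sources used here. Scaling to a common mean makes every change relative to the array total.

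Without its 124 controls the table of 24123 probe sets left 23999, fitted on log2(signal + 16) with limma 3.58.1 in R 4.3.3 (1 mean per stage, moderated variances, Benjamini-Hochberg adjustment over all probe sets, checked on simulated data). Of these, 10069 carried 1 symbol, 198 several and 13732 none. Symbols follow RefSeq by gene identifier (1 of the 42 members had none there), and 6 probe sets naming a factor with another gene were not used. Genes given in full were a set list of key factors and the 6 largest called rises and falls per comparison; partner genes were up to 3 called members per list and comparison. The members and lists were chosen with earlier results of these data known. Alternatives were quantile normalization, median centring, a pseudocount of 1, array weights, trended and robust variances, only the stages compared, brighter probe sets, the mean over a gene's probe sets, GAPDH 3'/5' ratio as a limit of 3 or a covariate, each sample left out and, added after the data were seen, even 1 dpn arrays and the 3' and middle EF1A controls. The number of arrays, 6, 6, 6 and 4, limits precision.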

Additional observations from a re-analysis of the deposited data

Results flagged for a closer look

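Among 168 sets of 4 or 6 animals (42 members at 4 stages), 10 held 1 animal far from the rest by Dixon's criterion (5.95%), and chance flags about 1 in 20. At 28 dpn, replicate 3 stood apart in 3 genes. EEF1D read 11228 there against 16557 to 18670 in the other animals, EIF5A read 9034 against 13057 to 14458, and EIF4H read 4897 against 2851 to 3434. Replicate 6 of that stage had EIF2AK2 at 388 against 164 to 202.

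At 1 dpn, replicate 1, an even array, stood apart in 2 genes, with EIF4H at 8367 against 5357 to 6167 and EIF5A at 7730 against 11855 to 13644. Replicate 3 had EIF2B1 at 1645 against 1277 to 1341. At 94 dpc, replicate 5 had EIF4B at 4307 against 5299 to 5816, and replicate 2 had EIF4E at 313 against 197 to 227. At 188 dpn, replicate 4 had EEF1E1 at 1085 against 827 to 862.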

How the results depend on the processing

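The count called over the 4 stages was 30, and 28 to 31 with 1 animal left out. With 1 animal left out, the counts higher and lower were 7 to 8 and 7 to 9 from 94 dpc to 1 dpn, 5 to 10 and 2 to 6 from 1 to 28 dpn, 1 to 3 and 3 to 5 from 28 to 188 dpn, and 9 to 13 and 8 over the span. The counts moved by over 1.5 times from 1 to 28 dpn without 1 dpn replicate 2 or 28 dpn replicate 5 or 6 (5 higher each), 28 dpn replicate 1 (3 lower) or 28 dpn replicate 4 (2 lower), and from 28 to 188 dpn without 188 dpn replicate 1, 2 or 3 (1 higher each) or 188 dpn replicate 2 (3 lower). Median centring gave 14 higher from 94 dpc to 1 dpn, 4 higher and 9 lower from 1 to 28 dpn, 6 higher and 1 lower from 28 to 188 dpn, and 21 higher and 5 lower over the span. Quantile normalization gave 11 lower from 94 dpc to 1 dpn. The even arrays gave 4 lower from 94 dpc to 1 dpn, 5 higher and 8 lower from 1 to 28 dpn, 4 higher from 28 to 188 dpn and 16 higher over the span. The mean over a gene's probe sets gave 5 higher from 94 dpc to 1 dpn, 2 lower from 1 to 28 dpn and 3 lower from 28 to 188 dpn. Fitting only the stages compared gave 4 higher and 2 lower from 1 to 28 dpn and 16 higher over the span. Brighter probe sets gave 8 lower from 1 to 28 dpn and 4 higher from 28 to 188 dpn, trended and robust variances 8 lower from 1 to 28 dpn, array weights 4 and 18 higher from 28 to 188 dpn and over the span, and the GAPDH covariate 18 higher over the span. The share of all probe sets called under each of these settings was not counted. The cause of these shifts in the member counts was not tested.

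Over all 53 called member changes, 67 of 1166 values with 1 animal left out lost their call, spread over 11 changes, and none changed sign. Under the other settings, 517 of 584 values kept the call, 63 lost it and 4 changed sign. With the mean over a gene's probe sets, EIF2B1 differed by -0.34 (adjusted p = 0.27) from 94 dpc to 1 dpn and 0.54 (adjusted p = 0.10) from 1 to 28 dpn, and EIF5A by -0.13 (adjusted p = 0.66) from 94 dpc to 1 dpn. With the 3' EF1A control, EEF1A1 differed by 0.022 (adjusted p = 0.94) over the span. The limit on the GAPDH ratio, set on the first of the GAPDH pairs, left out no array. No paired analysis was possible because the replicate numbers follow only the order of the samples. Signals near the background, as of EIF2AK2 and EIF5B at 1 dpn, limit their folds.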
